A study of Mus musculus with 47 samples.

Results

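The liver sinusoid is lined by endothelial cells and wrapped by stellate cells, and 38 genes that mark these cells or their matrix were followed here across the livers of male and female mice with and without the pregnane X receptor (PXR). The genes were chosen by name: 24 endothelial members (Stab2, Stab1, Lyve1, Clec4g, Kdr, Flt1, Flt4, Pecam1, Cdh5, Tek, Tie1, Eng, Oit3, Fcgr2b, Gpr182, Bmp2, Ptprb, Egfl7, Emcn, Mrc1, Ehd3, Dnase1l3, Robo4 and Aqp1) and 14 stellate and matrix members (Lrat, Des, Reln, Dcn, Lum, Col1a1, Col1a2, Col3a1, Pdgfrb, Rgs5, Acta2, Ecm1, Colec11 and Hgf). They are 38 of the 21745 genes tested. Each gene was read on the array probe of that name with the highest mean signal, and all 38 probes were well above background on 47 of 47 arrays.

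Sinusoidal endothelial cells form a fenestrated lining without a continuous basement membrane, through which plasma reaches the hepatocytes. They clear waste molecules from blood through scavenger receptors such as stabilin 2, and they send signals such as BMP2 to hepatocytes, where BMP signalling raises hepcidin. Stellate cells lie between the endothelium and the hepatocytes, store vitamin A as retinyl esters and make hepatocyte growth factor (HGF), and they become the main source of fibrillar collagen when activated. PXR, encoded by Nr1i2, is a nuclear receptor for drugs and bile acids that is best known in hepatocytes and gut epithelium.

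Whole liver RNA of 47 mice was hybridised to 1-colour Agilent arrays. The mice were 6 months old, on a C57BL/6J background, and were littermates from crosses of Pxr+/- parents, so that Pxr+/+ (wild-type) and Pxr-/- (whole-body knock-out) animals shared their origin. Each genotype and sex was given water (control) or the antibiotics ampicillin, neomycin and vancomycin in drinking water (ATB) for 2 weeks, and livers were taken at hour 6 of the light phase. This makes 8 groups of 6 mice, except for 5 male Pxr-/- control mice. Each group had its own 2 cages, and the labels do not give the cage of each mouse. Cage was therefore not a term in the model, which treats the mice of a group as independent. Differences between cages can enter every comparison, and the SE and p values do not account for them. The single tested Nr1i2 probe read lower in Pxr-/- mice by 0.28 to 0.57 on the log2 scale in the 4 group pairs (SE 0.18, lowest adjusted p = 0.0852), with overlapping values. The sources used here do not place this probe inside or outside the deletion, so it cannot test the genotype labels. In a bulk liver sample, fewer endothelial or stellate cells and less RNA of these genes per cell cannot be told apart.

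Values below are log2 signal intensities after normalisation, in which 1 unit is a doubling, and they rank mice for 1 gene but not genes against each other. A change is the difference of 2 group means on this scale, given ± its standard error (SE) from a linear model of all 47 arrays (limma). A gene was called where its Benjamini-Hochberg adjusted p was 0.05 or less and its fold change was above 1.2, the threshold of the study's methods. The median change of all genes tested is given beside each list, because it was not 0 in every comparison.

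The first question was whether the absence of PXR changed these genes in untreated mice. In control females, 9 of the 24 endothelial members were called lower in Pxr-/- than in Pxr+/+ livers and none was called higher, against 2.97% of all genes called lower. None of the 14 stellate members was called. Of these, 14 of 14 had a change below 0, as did 80.7% of all genes, and 5 had an unadjusted p below 0.05. The median change was -0.45 over the endothelial members and -0.28 over the stellate members, with -0.12 over all genes. An unadjusted p below 0.05 was found for 18 endothelial members, and for 21.5% of all genes. For 5 endothelial members (Stab2, Kdr, Cdh5, Emcn and Mrc1) every Pxr-/- control female lay below every Pxr+/+ control female, a separation found for 1.67% of all genes.

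**Figure D1:**
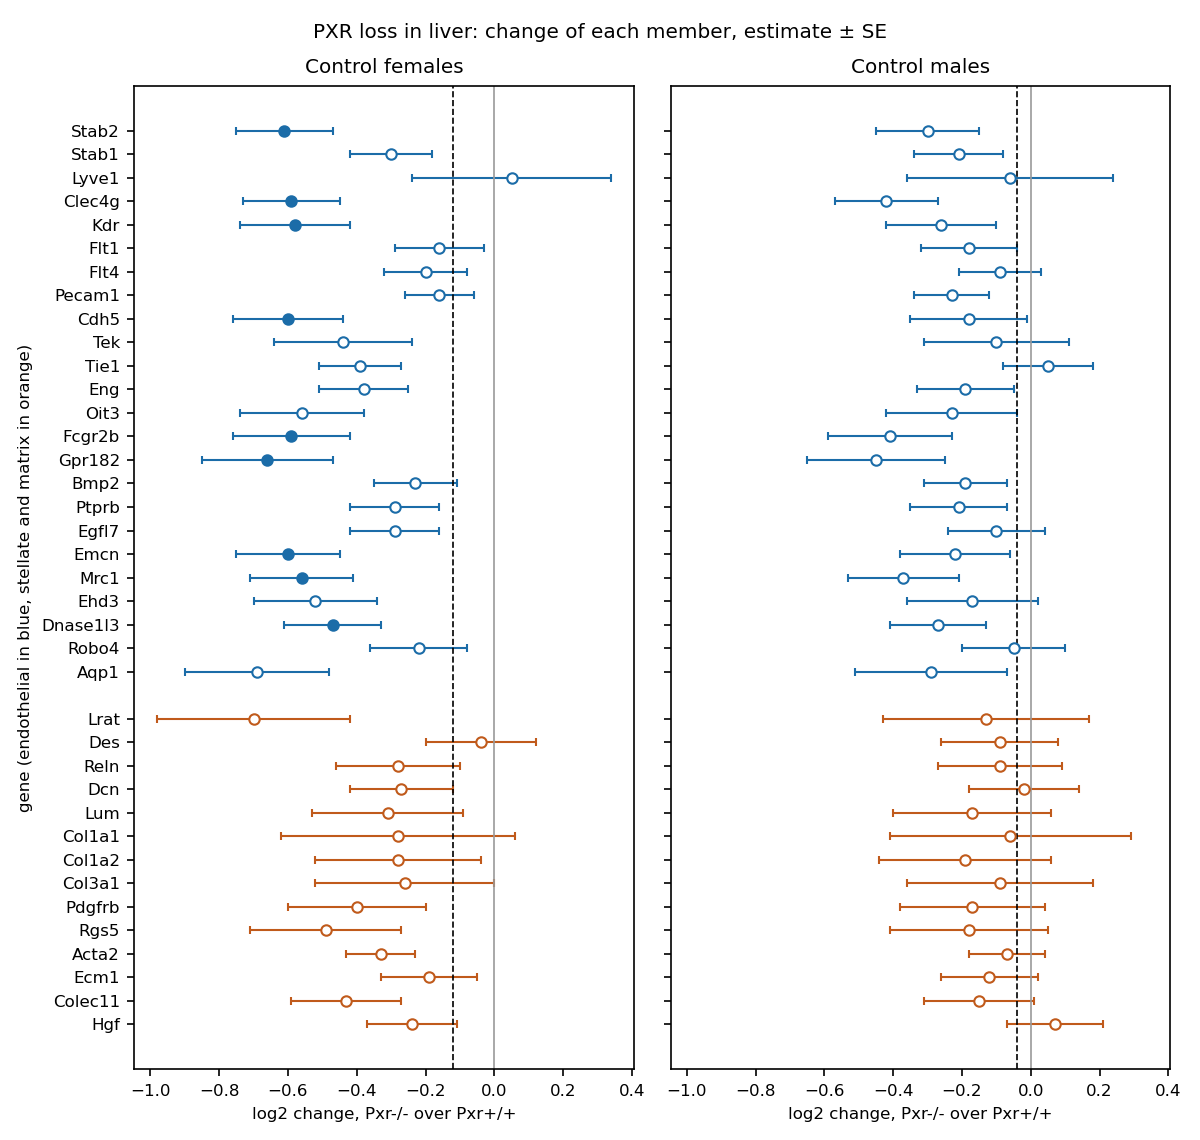
Change of each of the 38 members with PXR loss (Pxr-/- less Pxr+/+, log2) in control females and control males, with bars of 1 SE from limma, filled points for called genes and a dashed line at the median of all genes. In control females 9 endothelial members and no stellate member were filled with the normalisation used here, and 0 to 10 endothelial members under 12 other ways of processing the arrays. In control males none was filled.

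The scavenger and lectin receptors of the sinusoid were among the called genes. Stab2, the stabilin 2 receptor that takes up hyaluronan, ran from 12.08 to 12.69 (median 12.31) in Pxr+/+ control females and from 11.21 to 12.05 (median 11.78) in Pxr-/- control females. These 2 ranges did not overlap. The change was -0.61 ± 0.14 (adjusted p = 0.014). The other 4 Stab2 probes changed by -0.64, -0.63, -0.45 and -0.29, the first 3 with adjusted p of 0.00519, 0.0172 and 0.0464 and the last with 0.182. In control males Stab2 ran from 11.63 to 12.04 (median 11.79) in Pxr+/+ mice, and the 5 Pxr-/- mice read 11.61, 11.41, 11.80, 11.23 and 11.41. Of these, 4 mice lay below the lowest Pxr+/+ male, and the change of -0.30 ± 0.15 was not called (adjusted p = 0.997). Under antibiotics the Stab2 group means were 12.35 ± 0.38 (SD) in Pxr+/+ and 12.07 ± 0.14 in Pxr-/- females, and 12.03 ± 0.23 and 11.75 ± 0.24 in the males. Stab2 was the member whose call held most widely in control females. It was called under 12 of 13 ways of processing the arrays and with each of the 12 arrays of these 2 groups left out in turn.

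Clec4g, a C-type lectin of sinusoidal endothelium, ran from 12.94 to 13.64 (median 13.33) in Pxr+/+ control females and from 12.41 to 12.97 (median 12.69) in Pxr-/- control females. The ranges touched only at their ends, and the change was -0.59 ± 0.14 (adjusted p = 0.0172). A second, dimmer Clec4g probe that matches another transcript changed by -0.11 (adjusted p = 0.649). In control males the Pxr+/+ mice ran from 12.57 to 12.96, and the 5 Pxr-/- mice read 12.28, 12.44, 12.67, 12.05 and 12.06, a change of -0.42 ± 0.15 that was not called (adjusted p = 0.74). The 4 ATB group means lay between 12.53 and 13.04. Mrc1, the mannose receptor, ran from 10.63 to 11.05 in Pxr+/+ and from 9.82 to 10.48 in Pxr-/- control females without overlap (change -0.56 ± 0.15, adjusted p = 0.0365). Fcgr2b, an Fc receptor that removes immune complexes, ran from 10.13 to 10.75 and from 9.36 to 10.15, so that the ranges just overlapped. Its change was -0.59 ± 0.17 (adjusted p = 0.0436), and a second Fcgr2b probe changed by -0.53 (adjusted p = 0.0847). Dnase1l3, a secreted nuclease, changed by -0.47 ± 0.14 (adjusted p = 0.046) from a median of 9.77 to 9.37. Macrophages are also known to express Mrc1, Fcgr2b and Dnase1l3, as well as Lyve1 and Stab1. Lyve1, a hyaluronan receptor, was the endothelial member that did not read lower in these females (change 0.05 ± 0.29, adjusted p = 0.932), and its 6 Pxr-/- values ranged from 6.89 to 8.99.

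The other called members were Kdr, Cdh5, Emcn and Gpr182, which differ in function. Kdr, the VEGF receptor 2, ran from 11.23 to 11.52 (median 11.37) in Pxr+/+ control females, a narrow range, and had a median of 10.79 in Pxr-/- control females, whose highest mouse lay just below that range. Its change was -0.58 ± 0.16 (adjusted p = 0.034). Cdh5, the VE-cadherin of endothelial junctions, ran from 9.36 to 9.86 and from 8.37 to 9.19 (change -0.60 ± 0.16, adjusted p = 0.0312). Emcn, the surface mucin endomucin, ran from 8.48 to 8.75 and from 7.46 to 8.47 (change -0.60 ± 0.15, adjusted p = 0.0202). In all 3 of these genes the Pxr-/- mice spread over a wider range than the Pxr+/+ mice, and in none did the groups overlap. Gpr182, an atypical chemokine receptor of sinusoidal endothelium, fell by 0.66 ± 0.19 (adjusted p = 0.0406), with values from 11.73 to 12.27 in Pxr+/+ and from 10.73 to 11.79 in Pxr-/- control females. A second Gpr182 probe changed by -0.28 (adjusted p = 0.179).

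The calls differed in how far they held. Beside Stab2, Clec4g and Emcn were each called under 10 of 13 ways of processing and with 10 of 12 arrays left out in turn. Cdh5 and Kdr were called under 8 ways each, and with 7 and 5 arrays left out. The least widely held were Fcgr2b and Gpr182, called under 7 ways each and with 3 and 4 arrays left out, and Mrc1 and Dnase1l3, called under 6 ways each and with 6 and 3 arrays left out.

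Several members with changes of like size missed the threshold. Aqp1, the water channel aquaporin 1, changed by -0.69 ± 0.21 (adjusted p = 0.0572), from a median of 13.17 to 12.43, and 1 Pxr-/- mouse at 13.21 lay inside the Pxr+/+ range of 12.84 to 13.54. Oit3 changed by -0.56 ± 0.18 (adjusted p = 0.066), Tie1, a partner of the angiopoietin receptor, by -0.39 ± 0.12 (adjusted p = 0.0694), and Tek, the angiopoietin receptor itself, by -0.44 ± 0.20 (adjusted p = 0.198). The VEGF receptors Flt1 and Flt4 and the adhesion molecule Pecam1 lay nearest to the all-gene median among the endothelial members that read lower, at -0.16, -0.20 and -0.16 (adjusted p = 0.477, 0.317 and 0.367).

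The promoters of 3 called endothelial members, and of Ecm1 as a stellate member with a marked sex difference, are printed here. They are examples and do not stand for their lists. Factors of the ETS family, such as ERG and FLI1, are known to keep many endothelial genes active and bind a GGAA core. Each line holds the 250 bases before the RefSeq start site (GRCm38.p6), 5′ to 3′ in the direction of the gene, with matches to AGGAAG or CGGAAG on either strand in capitals (CTTCCT or CTTCCG where the match is on the other strand). The regions are chr10:87007943-87008192 (minus strand) for Stab2, chr8:3720652-3720901 (minus strand) for Clec4g, chr3:137340828-137341077 (plus strand) for Emcn and chr3:95739570-95739819 (minus strand) for Ecm1.
Stab2: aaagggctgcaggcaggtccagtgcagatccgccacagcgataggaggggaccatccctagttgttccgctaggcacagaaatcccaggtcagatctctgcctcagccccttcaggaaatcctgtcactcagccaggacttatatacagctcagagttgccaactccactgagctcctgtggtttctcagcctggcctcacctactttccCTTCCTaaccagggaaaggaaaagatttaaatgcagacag
Clec4g: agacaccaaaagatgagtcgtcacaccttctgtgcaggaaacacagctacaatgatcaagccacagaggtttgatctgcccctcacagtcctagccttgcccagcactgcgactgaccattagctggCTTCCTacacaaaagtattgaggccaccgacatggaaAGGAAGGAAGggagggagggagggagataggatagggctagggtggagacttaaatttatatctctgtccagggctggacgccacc
Emcn: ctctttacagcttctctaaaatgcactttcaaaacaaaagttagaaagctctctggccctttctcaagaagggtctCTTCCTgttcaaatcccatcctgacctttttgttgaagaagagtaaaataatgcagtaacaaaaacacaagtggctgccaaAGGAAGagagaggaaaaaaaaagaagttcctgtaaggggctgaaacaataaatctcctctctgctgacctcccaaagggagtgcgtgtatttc
Ecm1: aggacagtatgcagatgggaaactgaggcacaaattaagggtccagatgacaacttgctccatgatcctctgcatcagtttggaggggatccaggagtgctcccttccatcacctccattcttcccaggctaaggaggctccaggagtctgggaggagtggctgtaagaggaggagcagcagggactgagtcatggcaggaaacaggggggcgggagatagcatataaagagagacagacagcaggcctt
Stab2 held 1 match, whose first base lay 40 bases before the start. Clec4g held 3, at 123, 86 and 82 bases, of which the last 2 overlap by 2 bases. Emcn held 2, at 174 and 93 bases, and Ecm1 held 0. Of the 26 members with a promoter in the RefSeq table, a match was present in 11 of 16 endothelial (68.8%) and 3 of 10 stellate members (30%), beside 49% of the 12131 tested genes with a promoter and 39.2% of all 32851 promoters. The half-site letters AGGTCA or AGTTCA, which nuclear receptors such as PXR with its partner RXR bind in pairs, were present on either strand in 6 of 16 endothelial (37.5%) and 1 of 10 stellate members (10.0%), beside 23.3% of tested genes. Not every called endothelial gene held an ETS-type match, since Kdr and Fcgr2b held 0, and the stellate genes with a match were Hgf, Colec11 and Reln. These matches describe the letters in the windows and are not binding sites. Their part in any change reported here was not tested.

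Of the stellate and matrix members in control females, Lrat had the largest change, -0.70 ± 0.28, which was not called (adjusted p = 0.15). Lrat makes retinyl esters, the stored form of vitamin A. It ran from 8.14 to 8.78 (median 8.53) in Pxr+/+ control females and from 6.86 to 9.05 (median 7.81) in Pxr-/- control females, so that the Pxr-/- mice lay both below and above the Pxr+/+ range. Rgs5, a pericyte regulator of G protein signalling, changed by -0.49 ± 0.22 (adjusted p = 0.186), with a median of 8.61 in Pxr+/+ and 8.04 in Pxr-/- mice and overlapping ranges. Colec11, a secreted collectin, changed by -0.43 ± 0.16 (adjusted p = 0.111), and Pdgfrb, the PDGF receptor beta, by -0.40 ± 0.20 (adjusted p = 0.238). Acta2, the smooth muscle actin of activated stellate cells and vessel walls, changed by -0.33 ± 0.10 (adjusted p = 0.0572), but its second tested probe read 0.43 ± 0.36 (adjusted p = 0.493), so the 2 probes disagreed in sign. The fibrillar collagens Col1a1, Col1a2 and Col3a1 changed by -0.28, -0.28 and -0.26 with SE of 0.34, 0.24 and 0.26. Col1a1 ran from 7.83 to 8.90 in Pxr+/+ and from 7.42 to 9.60 in Pxr-/- control females, and the highest Pxr-/- mouse exceeded every Pxr+/+ mouse.

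Levels of the lists were also computed for each mouse, as the median over the members of the log2 distance from each gene's mean over all mice, less the same median over all genes. The endothelial level ran from 0.08 to 0.40 (median 0.24) in Pxr+/+ control females and from -0.60 to 0.16 (median 0.05) in Pxr-/- control females. The Pxr-/- mouse of replicate 1 was lowest at -0.60, with the next at -0.18. The stellate level ran from 0.22 to 0.40 in Pxr+/+ control females and from -0.39 to 0.53 in Pxr-/- control females, where replicate 1 was again lowest and replicate 3 was highest. The number of endothelial calls moved with single mice. Without a Pxr-/- control female it was 2 (replicate 1), 1 (replicate 2), 14 (replicate 3), 8 (replicate 4), 2 (replicate 5) or 9 (replicate 6). Without a Pxr+/+ control female it was 7 (replicate 1), 4 (replicate 2), 7 (replicate 3), 5 (replicate 4), 3 (replicate 5) or 5 (replicate 6). Without Pxr-/- replicate 3, the stellate members Lrat and Colec11 were called too, and without Pxr+/+ replicate 6 Acta2 was called. Stab2 was among the called genes each time.

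**Figure D2:**
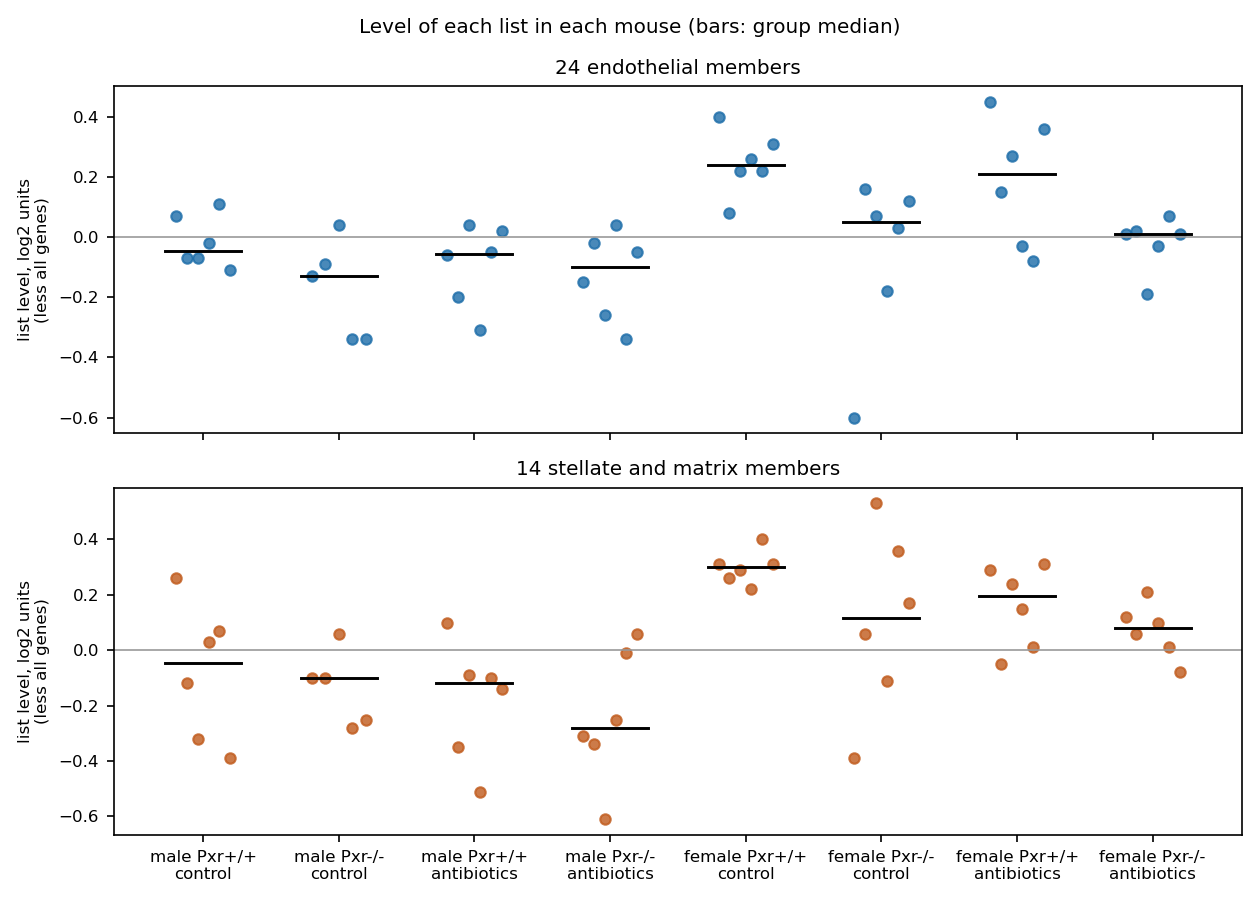
Level of the endothelial and of the stellate members in each of the 47 mice (median log2 distance of the members from their own means over all mice, less that of all genes), by group, with 1 point a mouse and a line at the group median. The endothelial medians run from 0.24 in female Pxr+/+ control to -0.13 in male Pxr-/- control mice, and in the endothelial panel female Pxr-/- control replicate 1 lies lowest at -0.60.

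Arrays were washed in 3 batches, each of which held every group. Within them, with 3, 2 and 1 mice of each genotype, the endothelial median of PXR loss in control females less the all-gene median was -0.37, -0.32 and -0.12, and the stellate median was -0.19, -0.14 and -0.20. Stab2 changed by -0.68, -0.63 and -0.36, Clec4g by -0.52, -0.71 and -0.53 and Emcn by -0.61, -0.66 and -0.49. Other ways of processing the arrays moved the count of called endothelial members to between 0 and 10. It was 9 with the deposited processed values, 3 with quantile normalisation, 3 with scaling on spike-in transcripts, 1 with the scanner's processed signal and 0 when the spread was taken from these 2 groups alone. In each of these the endothelial median stayed 0.27 to 0.38 below that of all probes, and no member was called higher.

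Other cell types moved in the same comparison. For 13 of 20 macrophage markers every Pxr-/- control female lay below every Pxr+/+ control female, a separation found for 1.67% of all genes. Called lower were 10 of the 20, beside 2.97% of all genes, and the median change of the 20 was -0.85. The called markers included Vsig4, a complement receptor of Kupffer cells (-1.10 ± 0.24, adjusted p = 0.0106), and Lyz2, a lysozyme (-1.07 ± 0.31, adjusted p = 0.047). The complement genes C1qa (-1.05 ± 0.26, adjusted p = 0.0211) and C1qb (-1.02 ± 0.26, adjusted p = 0.0225) were also called. The macrophage level of single mice ran from 0.51 to 1.18 in Pxr+/+ and from -0.15 to 0.20 in Pxr-/- control females, and the Pxr-/- mouse with the lowest endothelial level had the highest macrophage level of its group. Hepatocyte markers had a median change of -0.06 with none of 12 called, and cholangiocyte markers one of 0.10 with none of 9 called. The part of the macrophage difference in the endothelial result was not tested.

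In control males none of the 38 members was called for PXR loss, against 0.189% of all genes. The median changes were -0.21 (endothelial) and -0.11 (stellate), with -0.04 over all genes, and 23 of 24 endothelial members read lower, as did 65.5% of all genes. An unadjusted p below 0.05 was found for 6 endothelial members (Stab2, Clec4g, Pecam1, Fcgr2b, Gpr182 and Mrc1) and for no stellate member, beside 5.21% of all genes. Gpr182 changed by -0.45 ± 0.20 and Fcgr2b by -0.41 ± 0.18 (adjusted p = 0.997 for both). The macrophage median was -0.47, with none of 20 called. The effect of PXR loss in males less that in females was called for no member, against 0.023% of all genes, so a difference between the sexes was not shown. It was 0.31 ± 0.20 for Stab2, its median was 0.19 over the endothelial and 0.22 over the stellate members, and Tie1 was the member with an unadjusted p below 0.05 (0.43 ± 0.18, adjusted p = 0.972), beside 4.43% of all genes.

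In mice given antibiotics no member was called for PXR loss in either sex, against 0.207% of all genes in females and 0.901% in males. The endothelial medians were -0.14 in both sexes, and the stellate medians were -0.08 in females and -0.25 in males, with 0.00 and -0.13 over all genes. An unadjusted p below 0.05 was found in females for Flt4 (-0.32 ± 0.12) and for Bmp2 (-0.33 ± 0.12), with adjusted p of 0.777 and 0.71, beside 5.17% of all genes. In males it was found for Lyve1, Oit3, Egfl7, Robo4 and Lum, beside 22.9% of all genes, and of these Lyve1 had the largest change (-0.64 ± 0.29, adjusted p = 0.186). The difference of this effect between the sexes was called for no member (0.046% of all genes). Over the 4 comparisons of genotype, 15 of the 38 members read lower in Pxr-/- livers each time, as did 29% of all genes.

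The next question was whether depleting the gut bacteria changed the sinusoidal genes. None of the 38 members was called for antibiotics in any of the 4 combinations of sex and genotype. The share of all genes called was 1.04% in male Pxr+/+, 0.11% in male Pxr-/-, 0.0138% in female Pxr+/+ and 0.0276% in female Pxr-/- mice. The endothelial medians in this order were 0.00, 0.07, -0.10 and 0.10, and the stellate medians 0.04, -0.09, -0.16 and 0.09. At an unadjusted p below 0.05 there were 1, 0, 3 and 2 members, beside 18.7%, 7.2%, 10.7% and 11.6% of all genes. In female Pxr+/+ mice these were Acta2 (-0.31 ± 0.10, adjusted p = 0.287), Gpr182 (-0.40 ± 0.19, adjusted p = 0.458) and Cdh5 (-0.34 ± 0.16, adjusted p = 0.464), all lower. In female Pxr-/- mice Stab2 and Emcn read higher by 0.32 ± 0.14 and 0.30 ± 0.15 (adjusted p = 0.353 and 0.414), and in male Pxr+/+ mice Lyve1 by 0.58 ± 0.29 (adjusted p = 0.271). No difference of antibiotic effects was called for a member either. The shares of all genes called were 0.0184% and 0.0% for the difference between genotypes in males and in females, and 0.0414% and 0.0046% for that between sexes in Pxr+/+ and in Pxr-/- mice.

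The last question was whether males and females differed. In Pxr+/+ control mice 20 of 24 endothelial and 10 of 14 stellate members were called lower in males than in females and none higher, where 29.9% of all genes were called lower. The median change, males less females, was -0.49 over the endothelial and -0.68 over the stellate members, with -0.20 over all genes. Less the all-gene median, the endothelial shift was -0.29, beside -0.33 for PXR loss in control females, and the stellate shift was -0.48, beside -0.16. For 11 endothelial and 6 stellate members every male lay below every female, as did 16% of all genes. This comparison has the Pxr+/+ control females in common with that of PXR loss, where they also were the higher group, so the 2 comparisons do not stand apart from each other. The counts of calls depended on the scaling of the arrays. They were 22 endothelial and 12 stellate with spike-in scaling and 11 and 6 with the deposited processed values, but 5 and 4 with quantile normalisation and 0 and 3 with the scanner's processed signal. The all-probe median, which was -0.20 with the normalisation used here, was 0.02 and 0.05 in the last 2. Relative to that median the endothelial members lay lower by 0.24 to 0.37 and the stellate members by 0.34 to 0.56 in every way of processing.

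**Figure D3:**
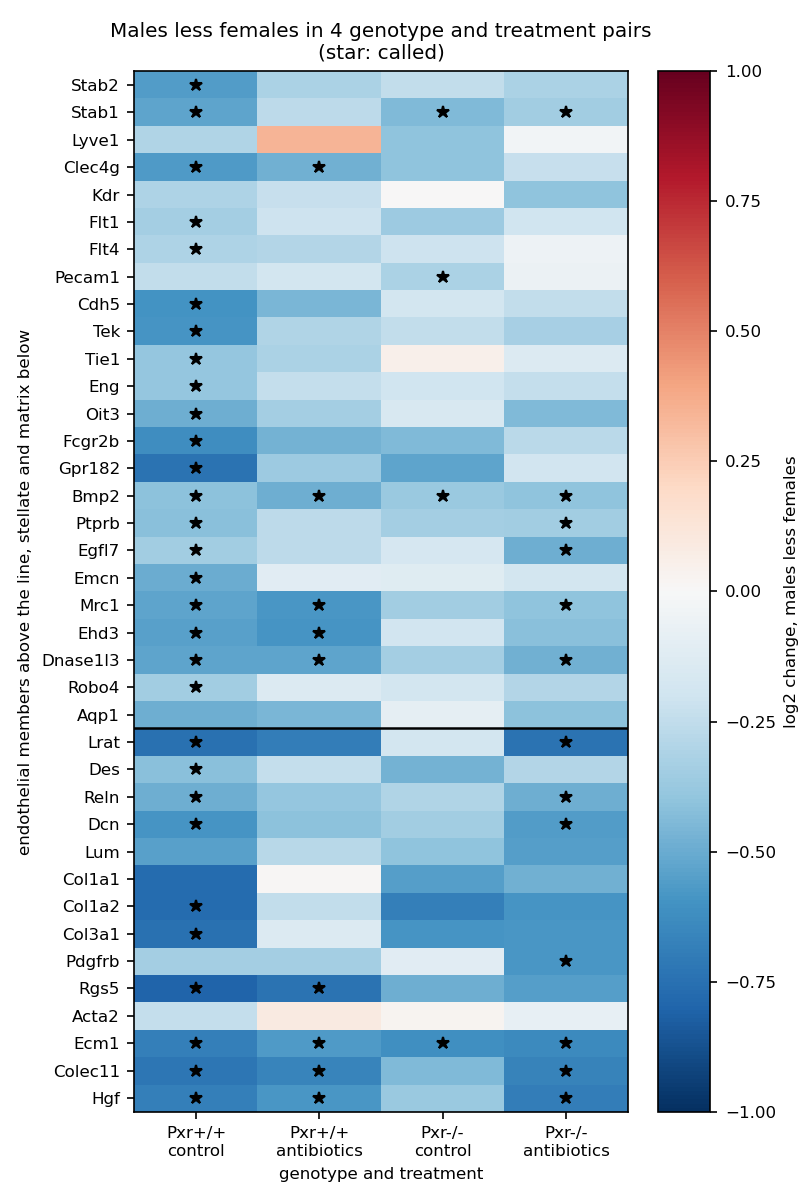
Change of each of the 38 members between the sexes (males less females, log2) in the 4 combinations of genotype and treatment, as a colour from blue (lower in males) to red (higher in males), with endothelial members above the line and stellate and matrix members below it. Stars mark members called by limma, all of them lower in males, 30 in Pxr+/+ control, 9 in Pxr+/+ ATB, 4 in Pxr-/- control and 13 in Pxr-/- ATB mice, and with the scanner's processed signal 3 in Pxr+/+ control mice.

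The other 3 sex comparisons had fewer calls, all lower in males. In Pxr+/+ ATB mice 5 endothelial and 4 stellate members were called (9.03% of all genes called lower), in Pxr-/- control mice 3 and 1 (13.7%) and in Pxr-/- ATB mice 6 and 7 (23.2%). The endothelial counts in both Pxr-/- comparisons and the stellate count in Pxr-/- control mice were near or below the share of all genes. The endothelial medians were -0.31, -0.25 and -0.31, and the stellate medians were -0.37, -0.42 and -0.57, with -0.04, -0.13 and -0.17 over all genes. In each of the 4 comparisons the stellate median was further below 0 than the endothelial median. Of the 38 members, 33 read lower in males in all 4 comparisons (21 of 24 endothelial and 12 of 14 stellate), as did 50.2% of all genes. In the single comparisons 85.5%, 58.8%, 76.7% and 81.4% of all genes read lower in males. Bmp2 and Ecm1 were called in all 4, 5 members in 3, 8 members in 2, 17 members in 1 and 6 members in none. Of all genes, 5.28% were called lower in males in all 4, 5.49% in 3, 9.49% in 2, 19.3% in 1 and 60.5% in none, so that the share of members called in all 4 was near that of all genes. Those called in 3 were Stab1, Mrc1, Dnase1l3, Colec11 and Hgf. The difference between the genotypes in the sex effect of control mice is the same contrast as the sex difference in PXR loss above, in which no member was called.

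The secreted products Ecm1, Hgf and Bmp2 were singled out after their values were seen, since they were called in 3 or 4 of the sex comparisons. Ecm1, a matrix glycoprotein made by stellate cells, ran from 14.72 to 14.96 in female Pxr+/+ control mice and from 13.86 to 14.39 in the males, without overlap. The change was -0.68 ± 0.14 (adjusted p = 0.000193), and a second Ecm1 probe changed by -0.55 (adjusted p = 0.00178). In Pxr-/- control mice the females ran from 13.98 to 15.12 and the 5 males read 14.05, 14.04, 14.19, 13.72 and 14.13, so that the lowest female lay among the males and the other females above them (change -0.61, adjusted p = 0.00231). Under antibiotics the Ecm1 changes were -0.57 (adjusted p = 0.00316) in Pxr+/+ and -0.64 (adjusted p = 0.000574) in Pxr-/- mice, the latter without overlap (females 14.45 to 14.85, males 13.80 to 14.26). Ecm1 was called in all 4 comparisons under 13 of 13 ways of processing, and with any 1 of the arrays compared left out. Within the 3 wash batches its change in Pxr+/+ control mice was -0.68, -0.59 and -0.86.

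Hgf, the growth factor that stellate cells release to hepatocytes, ran from 8.41 to 8.82 (median 8.54) in female and from 7.65 to 8.15 (median 7.92) in male Pxr+/+ control mice. The ranges did not overlap, and the change was -0.68 ± 0.13 (adjusted p = 0.00018). Its 3 other probes changed by -0.65, -0.45 and -0.35, with adjusted p of 4.46e-05, 0.00127 and 0.00179. The Hgf change was -0.58 (adjusted p = 0.00203) in Pxr+/+ ATB mice and -0.69 (adjusted p = 0.000173) in Pxr-/- ATB mice. In Pxr-/- control mice it was -0.37 and not called (adjusted p = 0.0686). There the 3 other probes changed by -0.57, -0.43 and -0.25, with adjusted p of 0.000829, 0.00572 and 0.0499. Bmp2, the endothelial ligand for hepatocyte iron sensing, ran from 10.60 to 11.20 in female and from 10.44 to 10.74 in male Pxr+/+ control mice, with some overlap. Its changes in Pxr+/+ control, Pxr+/+ ATB, Pxr-/- control and Pxr-/- ATB mice were -0.41, -0.49, -0.37 and -0.40, with adjusted p of 0.00629, 0.00248, 0.0336 and 0.01. In this order it was called under 10, 13, 7 and 9 of the 13 ways of processing. In Pxr-/- control mice it was not called with the deposited values or quantile normalisation, and it was called with 5 of the 11 arrays left out in turn.

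**Figure D4:**
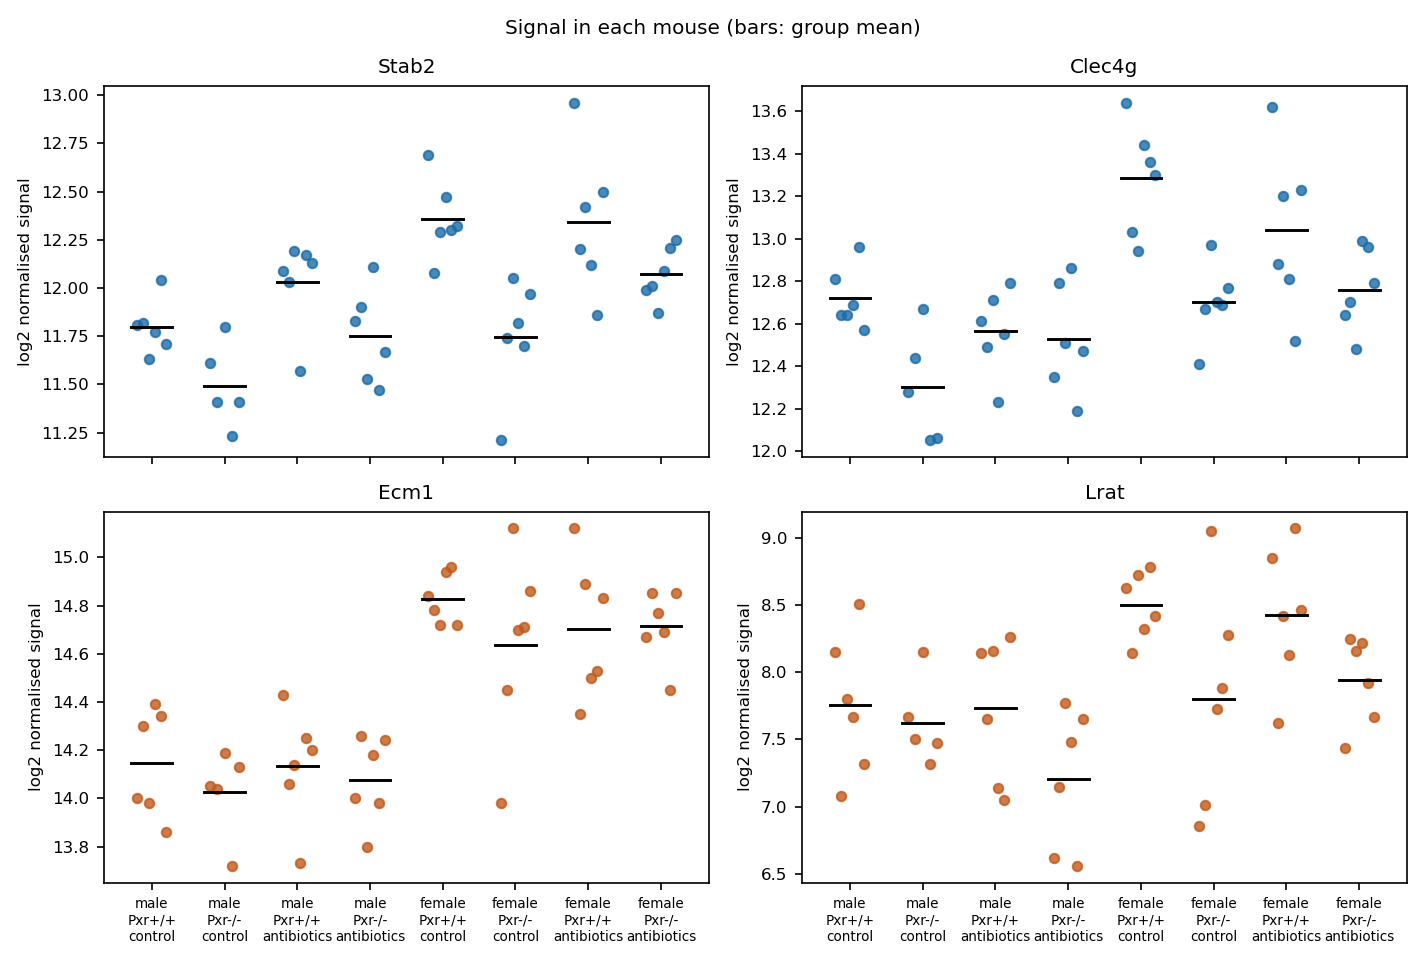
Normalised log2 signal of Stab2, Clec4g, Ecm1 and Lrat in each mouse of the 8 groups, with 1 point a mouse and a line at the group mean. Stab2 in female Pxr-/- control mice (11.21 to 12.05) lies below female Pxr+/+ control mice (12.08 to 12.69), and Ecm1 in male Pxr+/+ control mice (13.86 to 14.39) lies below the females (14.72 to 14.96).

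Among the stellate members, Colec11 ran from 12.13 to 12.52 in female and from 11.31 to 11.92 in male Pxr+/+ control mice, without overlap (change -0.72 ± 0.16, adjusted p = 0.000528). It was also called in both ATB comparisons (-0.66 and -0.67, adjusted p = 0.00272 and 0.00139), and in Pxr-/- control mice it changed by -0.44 (adjusted p = 0.0593). Rgs5 had the largest change of all members in Pxr+/+ control mice, -0.80 ± 0.22 (adjusted p = 0.00438), with females from 8.20 to 9.36 and males from 7.65 to 8.07. Col1a2 and Col3a1 were called at -0.77 ± 0.24 and -0.75 ± 0.26 (adjusted p = 0.0136 and 0.0238), while Col1a1, at -0.77 ± 0.34, was not (adjusted p = 0.0727), and its male values from 6.51 to 8.48 overlapped the female values from 7.83 to 8.90. The other tested probes of these genes were dimmer and not called. They changed by -0.24 for Col1a2 (adjusted p = 0.137) and by -0.17 and -0.24 for Col3a1 (adjusted p = 0.379 and 0.288). For Col1a1 they changed by -0.8 and -0.62 (adjusted p = 0.0626 and 0.127). Lrat changed by -0.75 ± 0.28 (adjusted p = 0.0374), with overlapping ranges. Pdgfrb (-0.34 ± 0.20, adjusted p = 0.169) and Acta2 (-0.24 ± 0.10, adjusted p = 0.0624) were not called. The second tested Acta2 probe changed by -0.68 (adjusted p = 0.132). In Pxr-/- control mice that second probe changed by -1.42 (adjusted p = 0.00743). The Acta2 means there, on the probe used for the counts, were 9.63 in males and 9.60 in females, so the 2 probes disagreed.

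Of the endothelial members in Pxr+/+ control mice, Gpr182 had the largest sex difference, -0.74 ± 0.19 (adjusted p = 0.00238). Its males ran from 10.82 to 11.66, below all females. A second, dimmer Gpr182 probe changed by -0.19 (adjusted p = 0.225). Fcgr2b changed by -0.62 ± 0.17, Cdh5 by -0.60 ± 0.16 and Tek by -0.59 ± 0.20 (adjusted p = 0.00475, 0.00416 and 0.0212), each without overlap. Stab2 changed by -0.56 ± 0.14, Clec4g by -0.57 ± 0.14 and Stab1 by -0.53 ± 0.12 (adjusted p = 0.00225, 0.00212 and 0.00105). The 4 endothelial members that were not called were Lyve1, Kdr, Pecam1 and Aqp1 (adjusted p = 0.421, 0.116, 0.0619 and 0.0651). Kdr, which differed by genotype in control females, ran from 10.58 to 11.33 in Pxr+/+ control males and overlapped the lower end of the female range.

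Single mice moved these counts as well. In Pxr+/+ control mice the endothelial count was 13 without male replicate 6, and the stellate count was 5 without male replicate 3 or male replicate 6 and 6 without female replicate 5. In Pxr+/+ ATB mice the endothelial count was 3 without female replicate 1 or male replicate 4 and 11 without female replicate 5. In Pxr-/- control mice the endothelial count was 8 without female replicate 1 or male replicate 4, 1 without female replicate 4 or 6 and 0 without female replicate 3 or male replicate 5 or 6. The stellate count there was 6 without female replicate 1, 4 without male replicate 4, 3 without female or male replicate 2 and 2 without female replicate 4, 5 or 6. In Pxr-/- ATB mice the endothelial count was 3 without female replicate 4, 5 or 6 or male replicate 3 or 5. Within the 3 wash batches the median sex difference of Pxr+/+ control mice less the all-gene median was -0.25, -0.24 and -0.41 for the endothelial and -0.44, -0.17 and -0.70 for the stellate members.

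**Figure D5:**
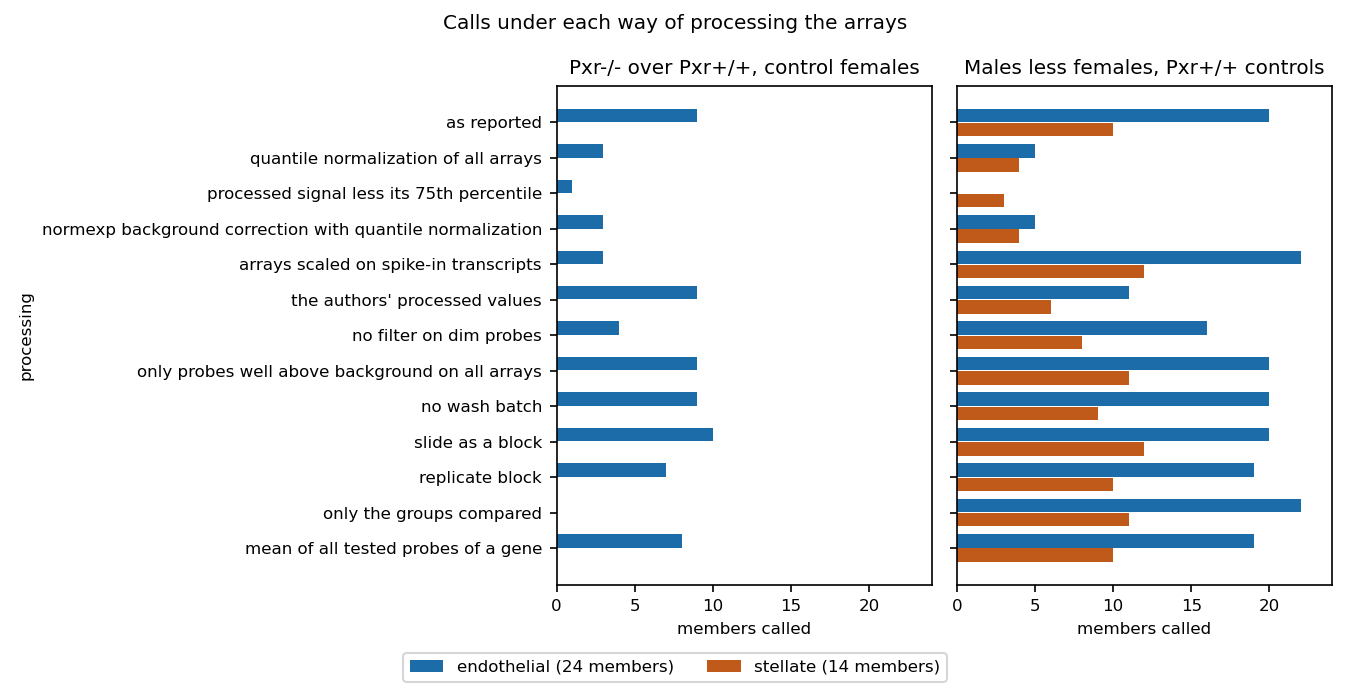
Number of endothelial and stellate members called for PXR loss in control females and for sex in Pxr+/+ control mice, under the normalisation used here and 12 other ways of processing the arrays. Endothelial calls for PXR loss run from 0 to 10 and stellate calls are 0 in all 13; for sex they run from 0 to 22 and from 3 to 12.

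Macrophage and lymphocyte markers also differed between the sexes. In Pxr+/+ control mice 18 of 20 macrophage markers were called lower in males, where 29.9% of all genes were. Their median change was -1.03, and the macrophage level ran from -0.24 to 0.07 in the males and from 0.51 to 1.18 in the females. Ly6c2 changed by -3.04 ± 0.17 (adjusted p = 1.67e-18) and Vsig4 by -1.49 ± 0.24 (adjusted p = 9.65e-06). Of 10 tested T, NK and B cell markers 6 were called lower, beside the same 29.9% of all genes. Among them was the granzyme Gzma (-1.42 ± 0.22, adjusted p = 4.24e-06). Hepatocyte markers had a median change of -0.12 with 1 of 12 called. In Pxr+/+ ATB mice, where 9 members were called, the macrophage median was -0.73 with 10 markers called lower (9.03% of all genes). In Pxr-/- control mice, with 4 members called, it was -0.65 with 8 called lower (13.7% of all genes). In Pxr-/- ATB mice, with 13 members called, it was -0.18 with 2 called lower and 1 higher. The share of all genes called lower there was 23.2%, above that of the macrophage markers. The part of the immune cell differences in the sex result of the members was not tested.

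The members also varied together among mice of the same group. Over 47 mice, after the group means and wash batches were taken out, the correlation between pairs of endothelial members had a median of 0.67 (from 0.08 to 0.89 over 276 pairs), and Stab2 and Emcn, at 0.88, were each other's closest member. Pairs of stellate members had a median of 0.49 (from -0.18 to 0.97), and the 3 fibrillar collagens formed a tight set of their own (0.94 to 0.97) with a median of 0.38 to endothelial members. Several stellate members followed the endothelial members at least as closely as the other stellate members. Among them were Rgs5 (median 0.58 and 0.33), Lrat (0.42 and 0.33), Colec11 (0.69 and 0.57), Ecm1 (0.62 and 0.55) and Reln (0.66 and 0.62). The closest member of Colec11 was Eng (0.87), and that of Rgs5 was Clec4g (0.77). The collagens, Lum, Pdgfrb, Des and Dcn followed the stellate members more closely. Hgf and Acta2 followed neither list closely (medians of 0.20 and 0.28 to endothelial members). Endothelial members had a median correlation of 0.28 with macrophage markers and stellate members one of 0.12. All of these values share the array of each mouse, so that an array effect enters both genes of a pair, and they are given as a description.

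Genes linked to the members by pathway were read as well. Of 30 tested signalling partners of endothelial cells, 2 were called lower by PXR loss in control females, Acvrl1, the endothelial receptor for BMP9 (-0.61 ± 0.12, adjusted p = 0.00617), and Hey1, a Notch target (-0.44 ± 0.12, adjusted p = 0.042), where 2.97% of all genes were called lower. In the sex comparison of Pxr+/+ control mice 18 of these 30 were called lower in males, where 29.9% of all genes were, with Acvrl1 at -0.87 ± 0.12 (adjusted p = 8.95e-07), Gdf2, which encodes BMP9, at -0.70 ± 0.15 (adjusted p = 0.00052), Maf at -0.61 ± 0.13 and Klf4 at -0.55 ± 0.21. Of 20 further endothelial markers, 4 were called lower by PXR loss in control females (2.97% of all genes), the tight junction gene Cldn5 (-0.86 ± 0.23), Mmrn2 (-0.57 ± 0.15), Calcrl (-0.56 ± 0.15) and Plvap (-0.48 ± 0.13), with adjusted p of 0.0294, 0.0257, 0.037 and 0.034. The median of these 20 was -0.47, beside -0.45 for the endothelial members. Both lists were read on the same arrays and chosen with earlier results of these data known. These medians therefore do not stand apart from each other. In control males the median of these 20 was -0.33, with none called.

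Of 39 tested stellate and matrix partners, Ngfr, the low-affinity nerve growth factor receptor (-0.67 ± 0.15, adjusted p = 0.0122), and Tgfb1, a driver of matrix production (-0.57 ± 0.14, adjusted p = 0.0205), were called lower by PXR loss in control females, 2 of 39 beside 2.97% of all genes. Between the sexes 20 of the 39 were called lower in Pxr+/+ control males, where 29.9% of all genes were, led by Thy1 (-1.35 ± 0.18, adjusted p = 1.59e-07), Mgp (-1.24 ± 0.28, adjusted p = 0.000803), Sod3 (-1.03 ± 0.17, adjusted p = 7.86e-06) and the matrix protease Mmp2 (-0.75 ± 0.27, adjusted p = 0.0291).

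Of 15 genes listed as hepatocyte targets of endothelial and stellate ligands, 7 were called lower in Pxr+/+ control males, beside 29.9% of all genes. Hamp2 and Hamp were among them, of which Hamp, the hepcidin gene, is a known target of BMP signalling. Whether either change is linked to Bmp2 was not tested. Hamp2 changed by -3.55 ± 0.39 (adjusted p = 2.8e-09) and was called in all 4 sex comparisons (-3.49, -3.39 and -3.79 in the other three), and Hamp changed by -0.97 ± 0.28 (adjusted p = 0.00658). Lgr5, a Wnt target, changed by -0.80 ± 0.26 (adjusted p = 0.0156).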

How the data were processed

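Livers of 47 mice in 8 groups were measured on 47 1-colour Agilent arrays over 6 slides and 3 wash batches. The deposited scanner files (Agilent Feature Extraction 10.10.1.1, per the labels) hold 1 median signal intensity per spot, linear and not normalised; the authors also deposited a table of log2 values, filtered and normalised with wash batch removed, which served as an alternative. From the intensities, 422 spot values marked non-uniform were left out, the 56605 gene probes were reduced to the 32979 probes (21745 genes) that passed the scanner's test against background on 5 or more arrays of some group, values were taken to log2, wash batch was removed and arrays were normalised by a CrossNorm-type stacked quantile method (300 draws), after the study's methods. On each array 31087 to 34477 gene probes were well above background, and the number of arrays limits the precision. One limma model (version 3.58.1 in R 4.3.3) with wash batch was fitted to all arrays, with Benjamini-Hochberg adjustment over all probes, and the script was tested on simulated data. Calls needed an adjusted p no higher than 0.05 and more than 1.2-fold change. Each gene was read on its probe of highest mean log2 signal. Probe positions in the files use mm9; promoters are from RefSeq (GRCm38.p6), with entries for 26 of the 38 members. The members and lists were chosen with earlier results of these data known. A set of 17 members was taken for closer description. It held the members called for PXR loss or antibiotics. It also held the 4 endothelial and 4 stellate members with the largest change in control females by genotype or in Pxr+/+ controls by sex. Group values were given for most of these, though not for Tek, Pdgfrb and Col1a2. They were also given for other members, such as Ecm1, Hgf and Bmp2, which were singled out after their values were seen. Up to 4 called genes of each other list were named. Alternatives were spike-in scaling, quantile normalisation, normexp background correction, the scanner's processed signal less its percentile 75, the deposited log2 values, no filter or a stricter filter, no wash batch, a slide or replicate block, the mean over probes, only the groups compared, and each array left out.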

Additional observations from a re-analysis of the deposited data

Results flagged for a closer look

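Of 152 sets of values (17 members and both list levels in 8 groups), 7 held 1 mouse that stood apart from its group by Dixon's test at 95%, where chance alone gives about 1 in 20. In control females, Cdh5 read 8.37 in Pxr-/- replicate 1 (next 8.91), the mouse with the lowest endothelial level. In male Pxr-/- control replicate 4, Tek read 7.22 (next 6.70) and Rgs5 read 8.29 (next 7.58). In control male Pxr+/+ replicate 5, Mrc1 read 10.73 (next 10.28). Under antibiotics, Kdr read 11.54 in female Pxr-/- replicate 5 (next 11.04) and 10.63 in female Pxr+/+ replicate 5 (next 11.15), and Stab2 read 11.57 in male Pxr+/+ replicate 4 (next 12.03).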

How the results depend on the processing

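Settings are named in full under the processing. All of the zero counts for antibiotics, for PXR loss outside control females and for the 6 differences of effects stayed 0 under all 12 other settings and with each array left out. No member was called in the opposite direction under any setting. For PXR loss in control females, the 9 endothelial calls became 3 with quantile normalisation, 1 with the processed signal, 3 with normexp and quantile normalisation, 3 with spike-in scaling, 4 without a filter and 0 with only the groups compared; leaving out 1 array gave 1 to 14 endothelial and 0 to 2 stellate calls. For sex in Pxr+/+ control mice, the 20 endothelial and 10 stellate calls became 5 and 4 with quantile normalisation, 0 and 3 with the processed signal, 5 and 4 with normexp and quantile normalisation and 11 and 6 with the deposited values; leaving out 1 array gave 13 to 22 and 5 to 12. In Pxr+/+ ATB mice, the 5 endothelial calls became 11 with spike-in scaling; leaving out 1 array gave 3 to 11 endothelial and 3 to 6 stellate calls. In Pxr-/- control mice, the 3 endothelial calls became 0 with quantile normalisation, the processed signal or only the groups compared and 1 with normexp, the deposited values or no filter, and the 1 stellate call became 2 with spike-in scaling and 4 with a slide block or the mean over probes; leaving out 1 array gave 0 to 8 and 1 to 6. In Pxr-/- ATB mice, the 6 endothelial and 7 stellate calls became 0 and 4 with quantile normalisation, 0 and 3 with the processed signal, 0 and 4 with normexp, 2 and 3 with spike-in scaling and 3 and 4 with the deposited values, and the endothelial calls became 12 with only the groups compared; leaving out 1 array gave 3 to 9 and 5 to 10. The cause of these moves was not tested. Whether replicate numbers pair the samples could not be decided from the arrays. The median correlation between arrays of 1 number was -0.0515, with 34 of 161 pairs above 0.1, and 0 of 47 arrays was closest to its own number. These correlations were taken after group means and wash batch were removed. The replicate numbers largely followed the wash batches, so this removal itself lowers the correlations within a number. With the replicate block the endothelial calls were 7 for PXR loss in control females and 19 for sex in Pxr+/+ control mice.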
